A study of Mus musculus with 15 samples.

Results

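The 10 genes followed here code for RNA-binding proteins with roles in neuronal splicing and were measured in E18 dorsal forebrain: Ptbp1, Ptbp2, Rbfox1, Rbfox2, Rbfox3, Nova1, Nova2, Elavl3, Elavl4 and Srrm4. They were taken by name, as 10 of the 53337 genes to which the transcript table could be summed, and they have 82 of its 133445 transcripts with a gene. The libraries were mRNA-seq of C57BL/6J mouse embryos at embryonic day 18 whose mothers were infused throughout gestation with arginine vasopressin (AVP) or saline from a minipump under the skin. Each library came from 1 brain: 4 of AVP males, 4 of saline males, 3 of AVP females and 4 of saline females, with no genetic change in any group. The infusion was given to the mother, so every group is a whole-litter exposure. The paper states that the samples within a group of a given sex each came from an independent litter. Its methods count fewer litters than brains, so a male and a female could share a litter. The labels do not say which embryos were littermates. Fits over both sexes, which include the test of the difference between the sexes, therefore have no term for litter. P-values of those fits treat embryos as independent, which littermates may not be. Values are TPM, a unit that divides by the length of the transcript and by the sum over the library, and the depth of each library is not given in the sources used here.

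The labels were checked against the data first. The library called saline male 3 went against its label: it had 266 TPM of Xist, where the other 7 male libraries had 0.121 to 1.13 and the 7 female libraries 174 to 294. Together, 4 genes of the Y chromosome reached 0.489 TPM in it, compared with 101.96 to 155 in its fellow males and 0.250 to 1.01 in females. AVP female 3 stood apart in a different way, with the lowest level of all 15 libraries for 7 of the 10 genes, and AVP male 1 was the lowest for the other 3. AVP female 2 was the highest for 6. The difference of a gene within a sex is given without saline male 3 or AVP female 3 where that moved it by over 1.5 times. For AVP male 1 it is given only for Ptbp1, Ptbp2 and Srrm4, and ranges with single libraries left out follow at the end. The young neuron markers of the dissected tissue were abundant, at a summed 10399 to 13166 TPM. In bulk tissue, fewer cells of a type and less RNA per cell cannot be told apart.

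As background, the switch from progenitor to neuron is also a switch in exon choice. Ptbp1 is made in progenitors and in most non-neural cells and represses many neuronal exons, and its paralog Ptbp2 takes its place in young neurons. Srrm4 promotes the inclusion of very short neuronal exons, Rbfox proteins bind GCATG and promote or repress an exon according to the side on which they bind, Nova proteins bind clusters of short pyrimidine-flanked CA motifs, and the neuronal Elavl proteins bind U-rich RNA and act on splicing and on transcript stability. Several of these proteins also act on exons in each other's transcripts or in their own.

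Exons that some annotated transcripts of the members skip are shown because the inclusion values below turn on them. All coordinates are GRCm38, and the sequences are those of the GENCODE M21 transcripts, 5′ to 3′ on the coding strand. Ptbp1 (chr10:79862014-79862047, plus strand) and Ptbp2 (chr3:119724612-119724645, minus strand) each have an exon of 34 nt. Its length is not a multiple of 3, so skipping shifts the reading frame, and the annotation classes both skipping transcripts of Ptbp1, and 2 of the 3 of Ptbp2, as targets of nonsense-mediated decay. The other of Ptbp2 is classed as a retained intron. The exons share 26 of 34 bases (76.5%). Capitals mark the 8 bases that differ between them.
Ptbp1 exon of 34 nt: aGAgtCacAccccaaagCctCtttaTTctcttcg
Ptbp2 exon of 34 nt: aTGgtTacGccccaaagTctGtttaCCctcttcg

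Rbfox2 (chr15:77105577-77105669, minus strand) and Rbfox3 (chr11:118502842-118502934, minus strand) share a coding exon of 93 nt, which encodes part of the RNA-binding domain. Of its bases 69 are the same in both genes (74.2%), and capitals mark the 24 that differ.
Rbfox2 exon of 93 nt: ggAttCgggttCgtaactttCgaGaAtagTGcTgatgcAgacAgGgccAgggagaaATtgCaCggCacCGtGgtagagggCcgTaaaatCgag
Rbfox3 exon of 93 nt: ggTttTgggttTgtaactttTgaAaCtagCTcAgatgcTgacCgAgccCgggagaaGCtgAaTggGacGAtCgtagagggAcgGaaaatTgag

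The remaining exons are each printed in capitals between 15 bases of the neighbouring exons. Rbfox2 carries alternative exons of 40 nt (chr15:77094451-77094490) and 43 nt (chr15:77091812-77091854), known as the brain and the muscle form, which join the same neighbours and leave the same reading frame. Ptbp1 has an exon of 78 nt (chr10:79860117-79860194) in the linker between RNA-binding domains, Elavl4 one of 39 nt in a linker (chr4:110209740-110209778, minus strand), and Srrm4 a microexon of 16 nt (chr5:116454673-116454688, minus strand) whose inclusion the annotation gives only in a transcript classed as a target of nonsense-mediated decay.
Rbfox2 exon of 40 nt: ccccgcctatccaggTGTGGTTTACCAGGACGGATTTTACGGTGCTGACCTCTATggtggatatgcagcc
Rbfox2 exon of 43 nt: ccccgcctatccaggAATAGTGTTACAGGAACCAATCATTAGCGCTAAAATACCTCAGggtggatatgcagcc
Ptbp1 exon of 78 nt: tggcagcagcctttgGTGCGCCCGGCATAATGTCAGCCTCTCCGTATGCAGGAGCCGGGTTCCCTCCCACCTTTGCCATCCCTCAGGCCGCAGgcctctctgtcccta
Elavl4 exon of 39 nt: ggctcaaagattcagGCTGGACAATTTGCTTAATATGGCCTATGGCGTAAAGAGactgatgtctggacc
Srrm4 exon of 16 nt: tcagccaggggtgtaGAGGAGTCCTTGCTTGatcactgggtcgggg

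All 10 genes were detected in every library, and their levels spanned a wide range. Ptbp2 had the highest mean level at 208 ± 14.7 TPM (SD, n = 15), followed by Rbfox2 at 202 ± 26.2 and Elavl3 at 185 ± 19.98. These 3 formed the top tier, and Elavl3 was above Rbfox1 (95.7 ± 15.6) in all 15 libraries without overlap of their ranges. A middle tier held Elavl4 at 56.3 ± 8.97, Ptbp1 at 53.4 ± 8.73 and Rbfox3 at 50.6 ± 7.75 TPM, and these neighbours changed places from library to library: Elavl4 was above Ptbp1 in 9 of 15, and Ptbp1 above Rbfox3 in 7. Ptbp2 was likewise above Rbfox2 in only 8 of 15. Nova2 (34.3 ± 3.57 TPM) and Srrm4 (28.9 ± 4.59) overlapped, with Nova2 the higher in 13. Nova1, at 8.43 ± 1.49 TPM, was below all the others in every library. Across libraries, Ptbp2 was the steadiest, by highest over lowest (1.37) and by the SD in percent of the mean (7.08%). Rbfox3 had the largest highest over lowest (2.09), with AVP female 3 as its lowest library at 31.5 TPM. By the SD in percent of the mean, Nova1 varied most (17.6%, and 15.3% for Rbfox3).

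**Figure D1:**
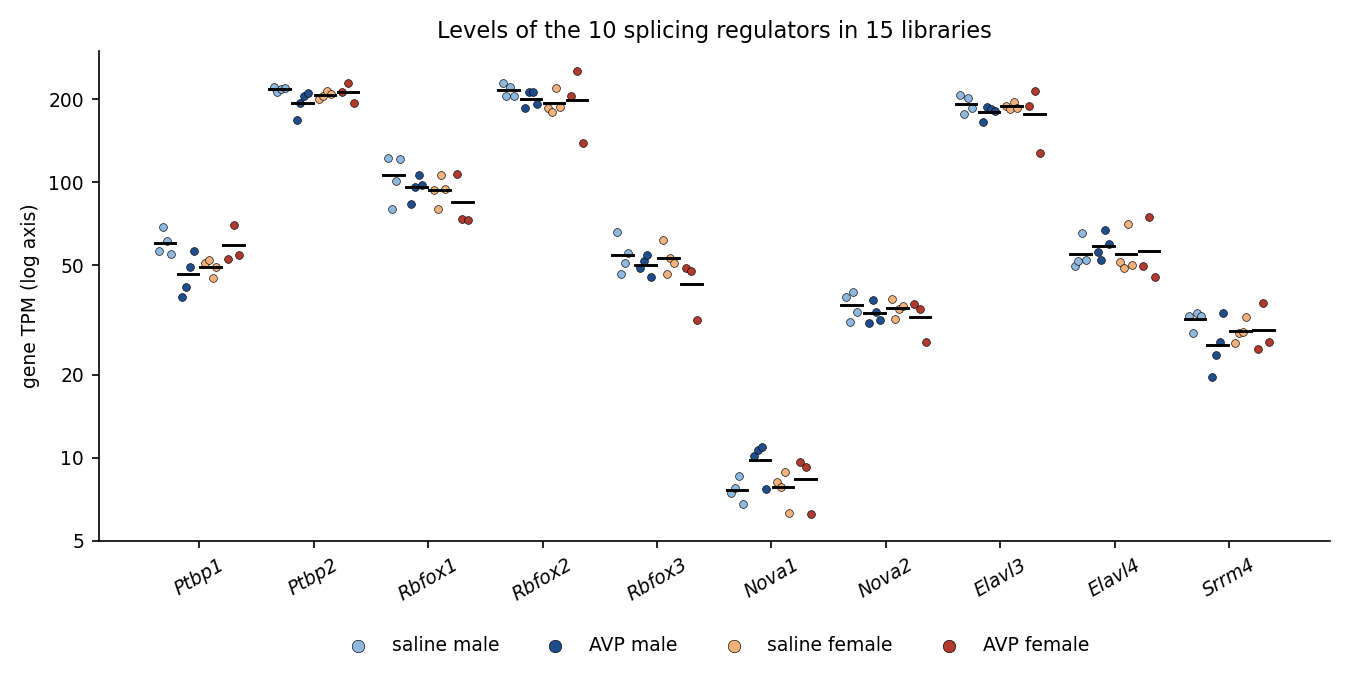
Gene TPM (log axis) of the 10 splicing regulators, with 1 point per library, a line at the mean and a colour for each of the 4 groups. Nova1 lies below all other genes, and AVP female 3 is the lowest point for 7 of the 10.

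AVP and saline were compared within each sex, as the study did, with limma's two-sided test on log2(TPM + 0.5), where a log2 difference understates the change of low genes. Neither sex gave a member that passed an adjusted p of 0.05. In males 1 of 15271 genes tested passed it (0.00655%), and in females none of 15132 did (0%). At an unadjusted p under 0.05, 2 of 10 members were called in males (Ptbp1 lower, Nova1 higher with AVP), beside 13.5% of all genes tested (12.4% lower and 1.11% higher), and in females 0 of 10, beside 4.51%. The median log2 difference of the members in males was -0.11, and that of all genes tested was -0.10. Differences in males are therefore read beside -0.10, and median-of-ratios scaling, which centres the genes by construction, had a median of 0.003. Without saline male 3 the same 2 members were called, beside 8.14% of all genes. With median-of-ratios scaling 1 member, Ptbp1, was called in females, beside 5.49%. With quantile normalization 3 members were called in males, beside 10% of all genes, and 1 in females, beside 4.81%. In females the medians were 0.004 for the members and -0.05 for all genes.

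Ptbp1, the repressor of neuronal exons, had the largest difference in males and went the other way in females. In AVP males it was at 38.3, 41.8, 49.4 and 56.2 TPM, and in saline males at 56.1, 69.0, 61.3 and 54.8. Only AVP male 4 reached the saline range. The difference was -0.38 on the log2 scale (SE 0.13, limma adjusted p = 0.31), and it was -0.27 with median-of-ratios scaling, -0.30 without AVP male 1 and -0.37 without saline male 3. In AVP females Ptbp1 was at 52.7, 69.8 and 54.4 TPM and in saline females at 51.1, 52.1, 44.9 and 49.3. Every AVP female was above every saline female, as were the groups of 5.55% of all genes tested in females in either direction. The female difference was 0.25 (SE 0.12, limma adjusted p = 0.999), 0.30 without AVP female 3 and 0.12 without AVP female 2, which had the highest value of all.

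The male difference in Ptbp1 lay more in models that are not coding. Coding transcripts of Ptbp1 summed to 33.6 ± 4.7 TPM (SD, n = 4) in AVP males and 38.3 ± 3.4 in saline males, and all its other transcripts to 12.9 ± 3.3 and 21.95 ± 3.8. The coding share was 70.5% to 77.0% in AVP males and 61.5% to 68.9% in saline males, without overlap, as were the shares of 7.04% of 6833 genes with a mean share of 5% to 95%. In females it was 67.1% to 82.2% and 67.9% to 74.3%, and the sum of the coding transcripts was 43.2 ± 4.7 TPM with AVP (n = 3) and 34.8 ± 1.8 with saline.

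The difference between these 2 effects was tested over all 15 libraries. For Ptbp1 the AVP effect in females exceeded that in males by 0.63 on the log2 scale (SE 0.18), which did not pass adjustment over 15078 genes (limma adjusted p = 0.90). Ptbp1 was the only member of the 10 with an unadjusted p under 0.05 in this test, beside 4.14% of all genes (0% at an adjusted p of 0.05). Without AVP female 3, and also without both that library and saline male 3, it was joined by Ptbp2 and Rbfox2 (3 of 10 members, beside 8.00% and 5.51% of all genes). With quantile normalization 2 members were called, beside 4.72% of all genes. The value for Ptbp1 was 0.62 without saline male 3, 0.68 without AVP female 3 and 0.55 with median-of-ratios scaling. Library numbers fall into runs of 1 to 8 and 13 to 20, each with all 4 groups, and nothing in the labels says whether the runs are batches. In males the Ptbp1 difference was -0.63 in the first run and -0.14 in the second (2 against 2 libraries in each), and in females 0.03 (1 against 2) and 0.39 (2 against 2).

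Markers of other cell types moved in females as well. Meningeal fibroblast markers summed to 225 to 316 TPM in AVP females and 134 to 157 in saline females, and 9 of 10 were higher at an unadjusted p under 0.05. For endothelium, 4 of 8 were higher (207 to 220 against 127 to 194 TPM), for dividing cells 6 of 10 (262 to 360 against 198 to 269), and for red blood cells all 5 that were tested (5130 to 13660 against 2241 to 5708). Choroid plexus markers (all 5 tested) and microglia and macrophage markers (all 9 tested) had a higher mean, with overlapping sums. In each of these 2 lists, 1 marker had such a p. Of 6 intermediate progenitor markers tested, 5 were higher, 1 of them at such a p, with overlapping sums (126 to 182 against 112 to 151 TPM). Radial glia markers were mixed, with 7 higher, 1 of them at such a p, and 5 lower (2234 to 3421 against 2500 to 2905 TPM). Of all 15132 genes tested in females, 354 were higher and 329 lower at such a p (4.51% together). Other lists were lower. Young neuron markers summed to 10399 to 11926 TPM in AVP females and 12016 to 12826 in saline females, with 11 of 12 lower and 2 of them at an unadjusted p under 0.05. Oligodendrocyte precursor markers summed to 34.8 to 63.3 against 65.1 to 100.5 TPM, with 3 of 6 lower at such a p. All 10 interneuron and all 10 striatal markers had a lower mean, 1 and 0 of them at such a p. No gene on these lists passed the adjusted p. In males these sums overlapped between the groups, with 143 to 279 TPM of meningeal fibroblast markers in AVP males and 68.1 to 296 in saline males. The part of these cells in the Ptbp1 difference was not tested.

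Ptbp2, the neuronal paralog, was at 168, 194, 206 and 211 TPM in AVP males and at 222, 212, 217 and 220 in saline males. The groups did not overlap, which was true of 7.27% of all genes tested in males, and their gap was small. The difference of -0.17 (SE 0.08, limma adjusted p = 0.38) fell to -0.05 with median-of-ratios scaling and to -0.10 without AVP male 1. Among females, Ptbp2 was at 212, 230 and 193 TPM under AVP and 201, 206, 208 and 215 under saline, and the groups overlapped fully (log2 difference 0.03, SE 0.08, limma adjusted p = 0.999).

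The ratio of Ptbp2 to Ptbp1 within a library is free of the library's scaling. It was 4.39, 4.65, 4.16 and 3.75 in AVP males and 3.95, 3.07, 3.55 and 4.01 in saline males, with geometric means of 4.22 and 3.62. In females it was 4.02, 3.29 and 3.55 with AVP and 3.93, 3.95, 4.79 and 4.23 with saline, with geometric means of 3.61 and 4.21. So the ratio was higher with AVP in males and lower with AVP in females, and in both sexes the groups overlapped. The log2 difference was 0.22 in males (exact two-sided permutation p = 0.11) and -0.22 in females (exact permutation p = 0.14), where the smallest p either design allows is 0.029. Neither p was below 0.05, although each difference exceeded the SD within its groups (0.13 to 0.18 on the log2 scale). From protein-coding transcripts alone, the log2 difference was 0.09 in males (exact permutation p = 0.37) and -0.32 in females (exact permutation p = 0.057).

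**Figure D2:**
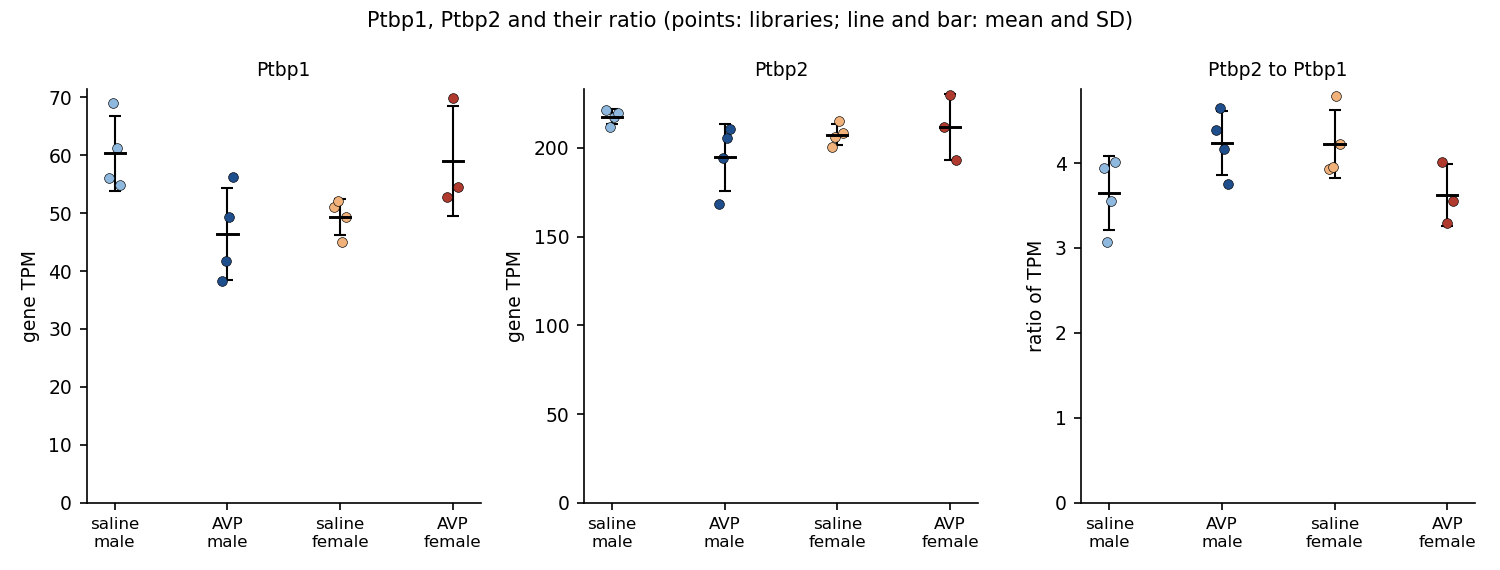
TPM of Ptbp1 and of Ptbp2 and the ratio of Ptbp2 to Ptbp1, with 1 point per library and the mean and SD of each group. Ptbp1 is lower with AVP in males, apart from AVP male 4, and higher with AVP in females, while the ratio overlaps between AVP and saline in both sexes.

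Srrm4, the activator of neuronal microexons, was at 19.7, 23.6, 26.3 and 33.5 TPM in AVP males and at 32.8, 28.5, 33.4 and 32.8 in saline males. AVP males 1, 2 and 3 lay below the saline range and AVP male 4 was the highest of all 8. The difference was -0.33 (SE 0.15, limma adjusted p = 0.38) and -0.21 without AVP male 1. Over all alternatives it lay between -0.46 and -0.19. Within the runs it was -0.49 in the first and -0.16 in the second. The female libraries had 24.8, 36.6 and 26.2 TPM of Srrm4 under AVP and 26.1, 28.4, 28.5 and 32.3 under saline, a difference of 0.002 (SE 0.15, limma adjusted p = 0.999).

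Among the Rbfox genes, Rbfox3, which encodes the neuronal nuclear antigen NeuN, differed most in females, but only with AVP female 3 kept. In AVP females it was at 48.7, 47.8 and 31.5 TPM, and in saline females at 61.8, 46.4, 53.0 and 51.0. AVP female 3 alone lay well below the rest. The difference of -0.33 (SE 0.17, limma adjusted p = 0.999) was -0.13 without AVP female 3, where that of Rbfox2 was 0.24. In AVP males Rbfox3 was at 48.7, 51.8, 54.5 and 45.4 TPM and in saline males at 65.8, 46.5, 51.0 and 55.4 (log2 difference -0.12, SE 0.11, limma adjusted p = 0.66).

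Rbfox1 and Rbfox2, its relatives with the same binding motif, overlapped between AVP and saline in both sexes. Rbfox1 ranged from 83.3 to 106 TPM in AVP males and from 79.9 to 122 in saline males (-0.13, SE 0.14), and from 73.0 to 107 in AVP females against 79.8 to 106 in saline females (-0.16, SE 0.16). Rbfox2 ranged from 186 to 213 TPM in AVP males and from 205 to 229 in saline males (-0.10, SE 0.07). In AVP females it was at 206, 253 and 139, which holds both the highest and the lowest value of all 15 libraries, so its difference of 0.006 had an SE of 0.19 and became 0.24 without AVP female 3. For Rbfox1 the table holds 2 of the 8 transcripts that the M21 annotation lists, so its level is that of those 2. Over all alternatives, the male difference lay between -0.26 and -0.020 for Rbfox1 and between -0.19 and -0.0007 for Rbfox3.

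Nova1 was the member called as higher with AVP in males at an unadjusted p. It was at 10.2, 10.7, 10.9 and 7.68 TPM in AVP males and at 7.47, 7.80, 8.57 and 6.80 in saline males. AVP males 1, 2 and 3 lay above every saline male, and AVP male 4 lay within the saline range. The difference was 0.34 (SE 0.13, limma adjusted p = 0.33), 0.44 with median-of-ratios scaling, 0.42 in the first run of library numbers and 0.25 in the second. Nova1 in females was 9.64, 9.31 and 6.24 TPM under AVP and 8.15, 7.87, 8.91 and 6.32 under saline (0.08, SE 0.20, limma adjusted p = 0.999), and the difference was 0.27 without AVP female 3. Its paralog Nova2 ranged from 31.0 to 37.5 TPM in AVP males and from 31.1 to 40.01 in saline males (-0.09, SE 0.10), and the difference of the female groups was -0.12 (SE 0.14).

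The Elavl genes, which mark cells that have become neurons, were called in neither sex. Elavl3 ranged from 165 to 188 TPM in AVP males and from 176 to 207 in saline males (-0.10, SE 0.07), and from 127 to 214 against 184 to 195 in females (-0.13, SE 0.16). Elavl4 ranged from 52.3 to 66.9 TPM in AVP males and from 49.8 to 65.3 in saline males (0.10, SE 0.11, and 0.19 without saline male 3), and from 45.2 to 74.7 against 48.9 to 70.4 in females (0.02, SE 0.20). With median-of-ratios scaling the male difference of Elavl3 turned to 0.011, as those of Rbfox2 (0.011) and Nova2 (0.017) did. Without saline male 3 that of Nova2 was -0.040. Without AVP female 3 the female differences were 0.094 for Elavl3, 0.16 for Elavl4, 0.022 for Nova2, -0.065 for Rbfox1, 0.090 for Ptbp2 and 0.068 for Srrm4.

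**Figure D3:**
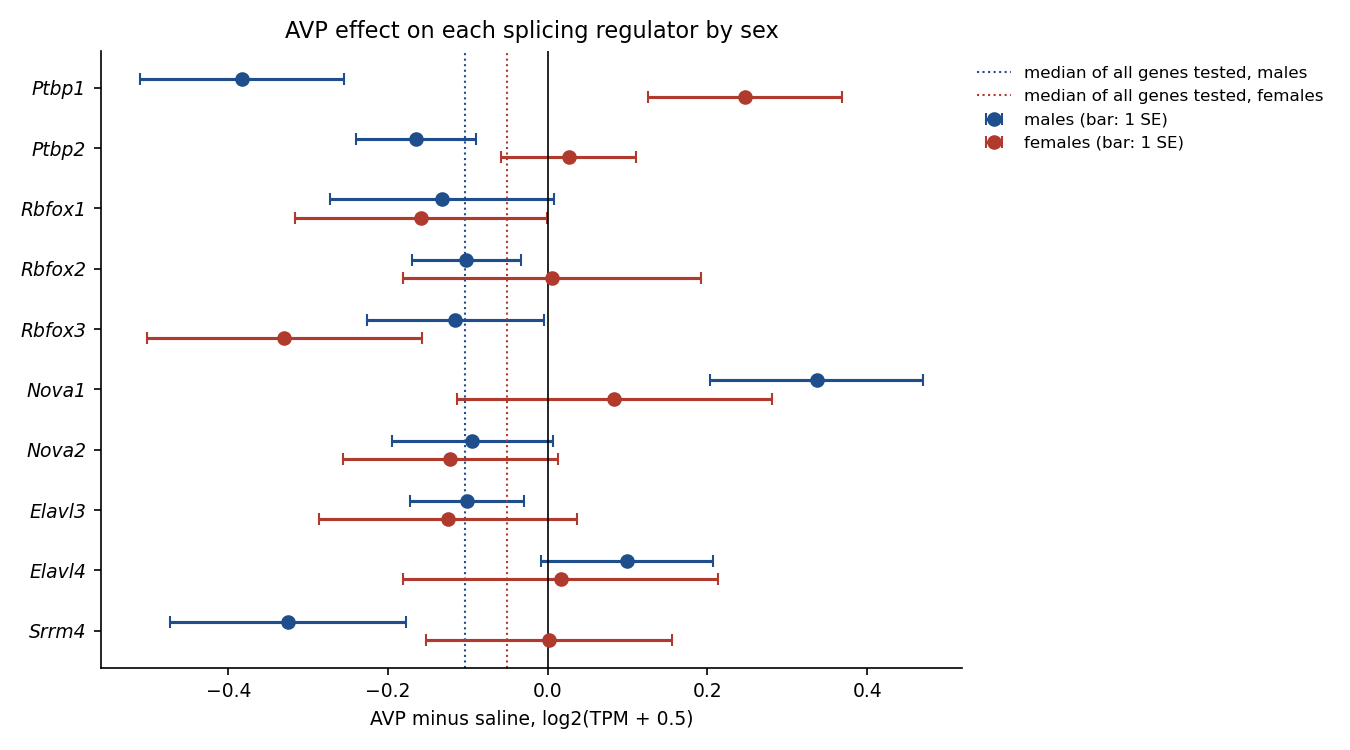
AVP minus saline on the log2(TPM + 0.5) scale for each gene in males and in females, with bars of 1 SE and dotted lines at the median of all genes tested in each sex (-0.10 in males and -0.05 in females). Ptbp1 is the member whose sexes lie farthest apart, at -0.38 and 0.25, and Nova1 is the highest in males at 0.34.

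With both sexes in one fit and sex as a term, 0 of 10 members passed an adjusted or an unadjusted p of 0.05, beside 0% and 10.4% of 15078 genes. The smallest p-values were those of Rbfox3 (-0.21, SE 0.10, limma adjusted p = 0.48) and Nova1 (0.22, SE 0.12, limma adjusted p = 0.49). Without AVP female 3, Rbfox3 was at -0.12 and Nova1 at 0.31. Nova1 was then called at an unadjusted p, as it was with median-of-ratios scaling (1 of 10 members, beside 6.16% and 7.39% of all genes), while without saline male 3 it was Rbfox3 (-0.24, beside 7.33%). With quantile normalization, and without both of these libraries, 1 member was called as well, beside 7.93% and 4% of all genes. Females and males were compared with treatment as a term, and again 0 of 10 were called at an adjusted p (0% of all genes) or an unadjusted one (1.39%). The largest sex difference was that of Rbfox1, at -0.18 as females minus males (SE 0.11, not past the adjusted p by limma). Saline male 3 enters this fit as a male, and without it 7 genes passed the adjusted p and no member was called at an unadjusted p either.

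The transcripts of each gene were examined next, since a gene's sum can hide an exchange among them. In males 46 of the 82 transcripts of the members passed the filter of 1 TPM. None passed an adjusted p of 0.05, as 0.00762% of 39364 transcripts did. At an unadjusted p under 0.05, 9 of 46 were called, 7 lower and 2 higher with AVP, beside 12.1% of all transcripts (10.7% lower and 1.39% higher). The count was 5 with median-of-ratios scaling, beside 12.1%, and 5 without saline male 3, beside 7.52%. Srrm4-201, Elavl4-206, Elavl3-203 and Nova1-203 were called in both. In females 1 of 43 was called at an unadjusted p, beside 3.06% of 37806, and none at an adjusted p (0%). The female count was 2 with median-of-ratios scaling, beside 2.9%, and 4 without AVP female 3, beside 3.46%. With both sexes, 1 of 44 was called, beside 7.85% of 37865 (0.00264% at an adjusted p).

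Srrm4-201, the main coding transcript of Srrm4 (7472 nt), had the smallest p of all member transcripts. It was at 12.6, 15.6, 14.1 and 13.2 TPM in AVP males and at 20.4, 17.3, 21.1 and 19.9 in saline males. No AVP male reached the saline range, and groups that do not overlap were found for 6.64% of all transcripts in males. The difference was -0.49 (SE 0.11, limma adjusted p = 0.36). Female libraries had 16.4, 22.8 and 9.10 TPM under AVP and 11.4, 15.2, 17.4 and 15.03 under saline, and the groups overlapped.

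Srrm4-203, a transcript of 6555 nt annotated with a retained intron, held most of the rest of the gene's TPM. It was at 6.07, 6.01, 11.05 and 18.6 TPM in AVP males and at 9.55, 9.76, 10.7 and 10.9 in saline males. The high gene level of AVP male 4 thus came from this transcript, which made up 55.6% of its Srrm4 TPM. It made up 63.0% in AVP female 3, and between 25.5% and 49.5% in the other 13 libraries. The coding transcripts together made up 57.2% ± 13.05 (SD, n = 4) of Srrm4 in AVP males and 63.2% ± 1.4 in saline males.

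A pair of coding transcripts of Elavl4 had differences of opposite sign in males, neither of which passed the adjusted p. Elavl4-206 was at 13.9, 15.2, 22.3 and 20.6 TPM in AVP males and at 9.92, 5.87, 12.2 and 12.6 in saline males, with no overlap (0.83, SE 0.25, limma adjusted p = 0.37). Elavl4-201 had the opposite sign and overlapping groups, at 6.29, 3.796, 0.203 TPM and near 0 in the AVP males and at 6.07, 11.6, 6.56 and 3.31 in the saline males (-1.92, SE 0.84, limma adjusted p = 0.41). Elavl4-206 in females was 9.21, 6.30 and 15.1 TPM under AVP and 16.4, 12.6, 25.2 and 11.4 under saline, a difference of -0.68 (SE 0.35) that was not called. Its sign was thus opposite in the sexes, and the difference between the sexes was not tested for transcripts. Another coding transcript, Elavl4-203, was not called. It was at 11.2 ± 3.2 TPM (SD, n = 4) in AVP males and 6.9 ± 3.7 in saline males. Elavl4-202 had the highest mean level of the 12 transcripts. It ranged from 16.3 to 23.4 TPM in AVP males and from 17.8 to 25.4 in saline males.

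**Figure D4:**
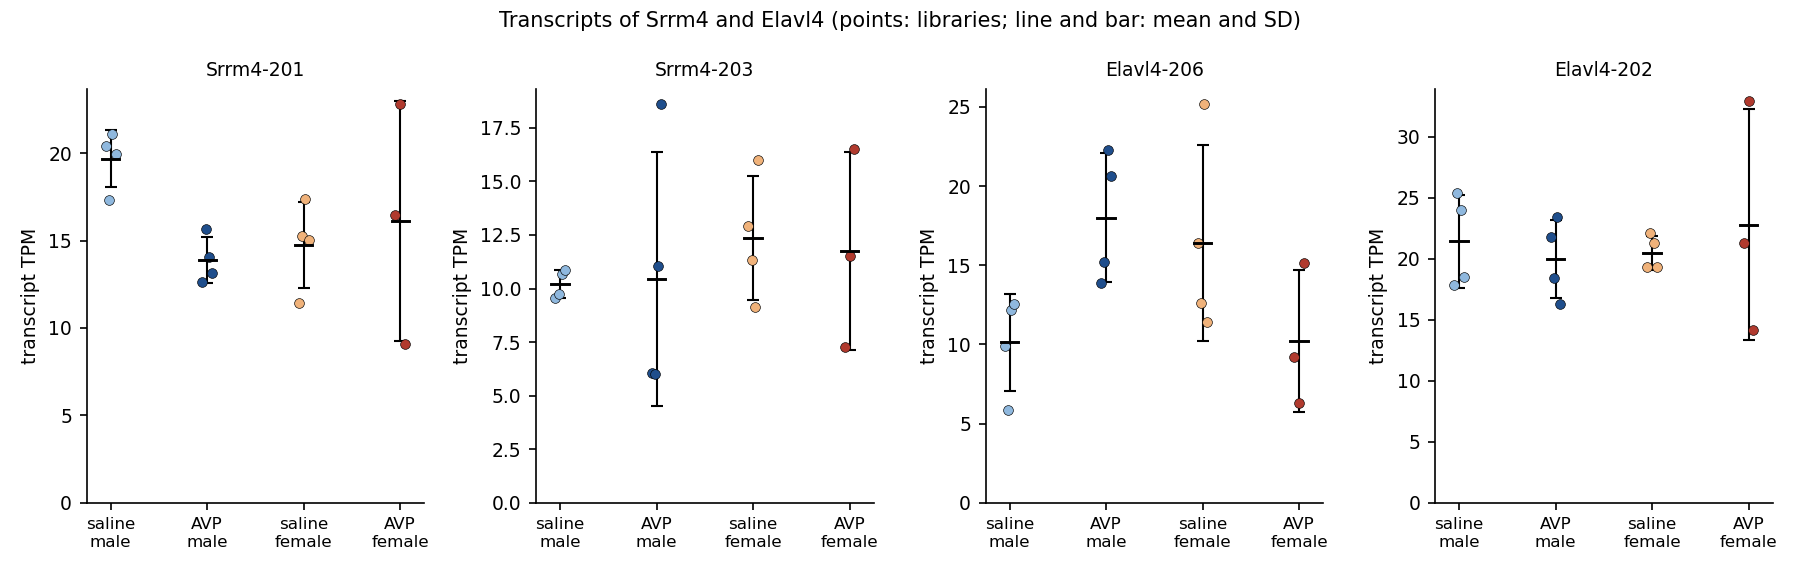
TPM of Srrm4-201, Srrm4-203, Elavl4-206 and Elavl4-202 in the 4 groups, with 1 point per library and the mean and SD. Srrm4-201 and Elavl4-206 do not overlap between AVP and saline in males, at 12.6 to 15.6 against 17.3 to 21.1 TPM and at 13.9 to 22.3 against 5.87 to 12.6, and both overlap in females.

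The other transcripts called in males at an unadjusted p were Elavl3-203 (-0.53, no overlap), Ptbp2-207 (-0.68, no overlap), Ptbp2-205 (-0.63), Ptbp2-208 (-0.61), Ptbp1-215 (-1.09) and Nova1-203 (1.16). Their adjusted p-values by limma lay between 0.37 and 0.41. All were minor, with a mean of at most 8.20 TPM. Nova1-203, a coding model of 532 nt, was at 3.37, 1.05, 2.58 and 1.25 TPM in AVP males and at 0, 0.405, 1.75 and 0.773 in saline males, while the full-length Nova1-201 was at 5.66 to 6.96 against 5.001 to 7.10. The higher Nova1 sum in AVP males therefore lay mainly in short models. Nova1-203 was also the member transcript called with both sexes (1.20, SE 0.39, limma adjusted p = 0.62). In females the transcript called was Ptbp1-216, the main coding form of Ptbp1 (0.32, SE 0.13, not past the adjusted p by limma). Its levels were 22.2, 25.0 and 19.8 TPM under AVP and 17.02, 16.2, 18.5 and 19.5 under saline. Groups that do not overlap in females were found for Ptbp1-216 and Rbfox3-203, 2 of 43, beside 4.13% of all transcripts.

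The genes differed in how much of their RNA was assigned to coding models. Rbfox1, Nova2 and Elavl3 had coding transcripts only, and in Rbfox2, Rbfox3 and Elavl4 they held 99.1% to 99.8% of TPM on average. Ptbp1 had 69.96% ± 5.6 (SD, n = 15) in coding transcripts, 10.2% ± 4.1 in targets of nonsense-mediated decay and 16.6% ± 3.2 in retained introns. Ptbp2 had 62.5% ± 2.6 in coding transcripts and 30.7% ± 3.0 in targets of nonsense-mediated decay, nearly all of it in Ptbp2-206, a partial model of 576 nt at 49.9 to 70.6 TPM. The decay share of Ptbp2 was 30.8% ± 4.6 in AVP males, 30.2% ± 2.7 in saline males, 31.9% ± 2.3 in AVP females and 30.1% ± 2.7 in saline females. Nova2 has a pair of transcripts with the same sequence, which carry the same value in every library.

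Inclusion of an exon was taken as the TPM of transcripts with it, in percent of that plus the TPM of transcripts that skip it. These are estimates over annotated models, and short models such as Ptbp2-206 weigh on them. Of the cassette exons of the members, 12 could be tested in males and with both sexes, and 11 in females. None was called in any comparison at an adjusted p (0% of 9472 exons in males, 0% of 9347 in females and 0% of 9345 with both sexes) or at an unadjusted p under 0.05 (5.92%, 3.87% and 4.45% of all exons).

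The paralogous exons of 34 nt had different inclusion in these estimates. In Ptbp1 the exon was at 80.2% to 99.2% in all 15 libraries, with a mean of 87.3% ± 5.1 (SD), and in Ptbp2 at 61.0% to 70.7%, with a mean of 65.6% ± 2.9. The lowest value in Ptbp1 was above the highest in Ptbp2. Of the mean 66.1 TPM that skipped the Ptbp2 exon, 61.2 was that of Ptbp2-206, the partial model of 576 nt. The order of the 2 genes therefore depends on that model. The Ptbp2 exon was at 68.1%, 61.0%, 65.6% and 70.7% in AVP males and at 63.1%, 64.5%, 69.0% and 64.7% in saline males, and the groups overlapped with a difference of 1.01 percentage points (SE 3.05, limma adjusted p = 0.98). In females the difference was -2.33 points (SE 3.36). The Ptbp1 exon was at 90.1%, 80.7%, 94.3% and 85.6% in AVP males and at 81.5%, 80.2%, 84.3% and 88.1% in saline males, a difference of 4.15 points (SE 3.34, limma adjusted p = 0.86). The highest value, 99.2%, was that of AVP female 3.

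The other exons printed above varied less between groups than between genes. The exon of 93 nt was at 93.4% to 96.2% in Rbfox2 and at 98.1% to 99.4% in Rbfox3, where it was too near to full inclusion to be tested. The brain form of 40 nt was at 86.9% to 92.4% and the muscle form of 43 nt at 6.06% to 9.95% of Rbfox2, so the brain form prevailed in every library. The Ptbp1 exon of 78 nt was near even, at 40.7% to 56.0%. Elavl4 included its 39 nt at 87.3% to 94.4%, and in females the groups did not overlap (87.8% to 89.2% with AVP and 89.9% to 94.4% with saline), as was so for 4.32% of all exons tested in females, with a difference of -3.798 points (SE 2.17). Srrm4 included its microexon at 4.03% to 11.2%, with a difference of -0.09 points in males (SE 1.75) and -2.94 in females (SE 1.88). Of the cassette exons not printed, those of Ptbp2 (155 nt), Rbfox2 (51 nt) and Rbfox3 (40 nt) were at 70.3% to 93.5%, 81.5% to 93.7% and 80.1% to 88.9%, and one of Nova1 (65 nt), found in a processed transcript, at 0% to 26.0%.

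**Figure D5:**
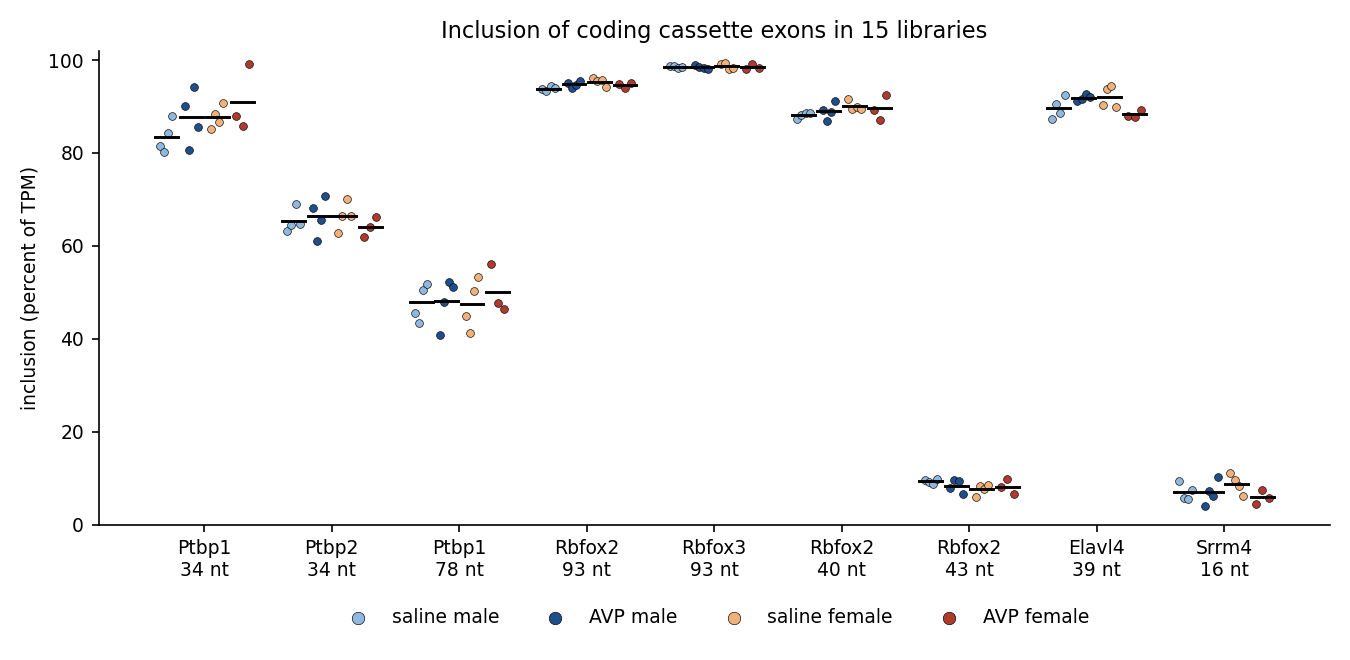
Inclusion in percent of the cassette exons of Ptbp1, Ptbp2, Rbfox2, Rbfox3, Elavl4 and Srrm4 whose sequences are printed above, with 1 point per library, a line at the mean and a colour for each group. The exons differ widely, from 4.03% in Srrm4 to 99.4% in Rbfox3, while the 4 groups of each exon lie close together.

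Cassette exons across the genome were counted in classes taken by length or by gene. Of 506 microexons of at most 27 nt tested in males, 31 had an unadjusted p under 0.05 (6.13%, beside 5.92% of all exons), and in females 16 of 488 (3.28%, beside 3.87%). In 24 genes with exons known to respond to the members, all cassette exons tested were counted, and the responding exons were not singled out. Of the exons counted, 3 of 69 had such a p in males (4.35%, beside 5.92%). In females it was 1 of 69 (1.45%, beside 3.87%). No exon of these classes passed an adjusted p.

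Other splicing regulators were counted from lists. None of the 67 genes tested from 3 lists passed an adjusted p in any comparison. Of 35 other neural splicing regulators tested, 7 were lower and 0 higher in males at an unadjusted p under 0.05 (median -0.15, beside -0.10 for all genes, of which 12.4% were called lower), and 1 was lower and 1 higher in females. Of the 11 SR proteins, none had such a p in either sex. Of 21 hnRNP proteins, 2 were higher and 1 lower in males (beside 1.11% and 12.4% of all genes, median -0.017), and none in females. The 10 genes of these lists with the smallest p with both sexes were Celf3 (-0.27), Hnrnpc (0.12), Rbm24 (-0.29), Hnrnpab (0.11), Celf5 (-0.29), Hnrnpl (-0.15), Srrm3 (-0.36), Raver2 (-0.28), Srsf12 (-0.24) and Khdrbs3 (-0.12), with adjusted p-values by limma of 0.46 to 0.51. Srrm3 is the paralog of Srrm4 with a like role in microexons, and Raver2 is a partner of PTB proteins. Of the 27 genes with exons known to respond to the members, 6 were lower in males (beside 12.4% of all genes), 1 in females and 8 with both sexes (29.6%, beside 9.69%) at an unadjusted p. None was higher. Their median difference with both sexes was -0.12, beside -0.08 for all genes. The mean log2 level of these genes was lowest in AVP female 3 (5.69) and AVP male 1 (5.83). Without AVP female 3 and saline male 3, the share of all genes called in either direction with both sexes fell from 10.4% to 4%. This list was not counted again without them, so the hold of single libraries on its count was not tested.

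Across the 15 libraries the members fell into sets that varied together, which is given as a description, since libraries share treatment, sex and the TPM total. Ptbp2 and Srrm4 had a Pearson r of 0.87 (Spearman's rho 0.79, r = 0.72 without the 2 libraries farthest from the median), and Ptbp1 had 0.73 with each of them (0.43 and 0.47 without the 2). Rbfox2 and Elavl3 had 0.91 (rho 0.79, 0.67 without the 2), Nova2 and Elavl3 0.84 (0.66 without the 2), and Rbfox3 and Nova2 0.81 (0.55). Nova1 and Srrm4 had the lowest, -0.48. With the mean log2 level of 12 young neuron markers, Elavl3 had 0.86, Nova2 0.85, Rbfox3 0.81 and Rbfox2 0.80, while Ptbp1 had -0.18 and Srrm4 0.09. Without the 2 libraries farthest from the median, the first 4 were 0.51, 0.64, 0.51 and 0.44. With the cortical projection neuron markers, Ptbp2 had 0.75 (0.86 without the 2) and Srrm4 0.73 (0.78). Ptbp1 had 0.48 (0.42) with these markers and Nova1 -0.31 (-0.22). Ptbp1 had 0.62 (0.45) with the radial glia markers and 0.65 (0.40) with those of intermediate progenitors. With the dividing cell markers Ptbp1 had 0.52 (0.24 without the 2) and Rbfox3 -0.74 (-0.65).

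The genes most like each member were taken by Pearson r over the 15 libraries among 15078 genes. They were Ccm2l (0.92) and Smtn (0.91) for Ptbp1, Zfp846 (0.92) and Eif4ebp2 (0.91) for Ptbp2, and Ppfia1 (0.95) and Brd8 (0.95) for Srrm4. For the Rbfox genes they were Kif26b (0.92) and Tspan5 (0.92) with Rbfox1, Hipk2 (0.98) and Casc4 (0.97) with Rbfox2, and Shroom2 (0.96) and Myo16 (0.95) with Rbfox3. For the others they were Pid1 and Calb1 (both 0.85) with Nova1, Mblac2 (0.94) and Kcnab1 (0.92) with Nova2, Mtmr7 and Lasp1 (both 0.97) with Elavl3, and Tmem30a (0.95) and Dr1 (0.94) with Elavl4. Without the 2 libraries farthest from the member's median, r lay between 0.79 and 0.95 for all 20.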

How the data were processed

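Dorsal forebrain RNA of E18 embryos was sequenced as stranded, paired mRNA libraries. Per the methods and the submitters' processing notes, the authors trimmed reads with Trim Galore 0.4.1, checked them with FastQC 0.5.2 and quantified GENCODE M16 transcripts (GRCm38) with Kallisto 0.43.1, with bias correction. The deposited values carry no unit name and share 1 total in all libraries, so they were read as the TPM that the authors obtained from Kallisto. The authors give an average depth over libraries, and that of each library is not given in the sources used here. Sleuth 0.29.0, used by the authors, needs estimates not used here and was not run. One female AVP library was left out by the authors.

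TPM were summed to genes with GENCODE M21, and 404 transcripts without a gene (0.154% to 0.199% of TPM) were left out. Features that reached 1 TPM in 50% or more of the libraries of a fit entered limma 3.58.1 (R 4.3.3) as log2(TPM + 0.5), with a mean-variance trend, two-sided, and Benjamini-Hochberg adjustment over all features tested (threshold 0.05). Fits were AVP against saline in males and in females, their difference, both sexes with sex as a term, and females against males. Cassette exons with a mean inclusion of 5% to 95% were tested on percent inclusion. Ptbp2 to Ptbp1 was tested by exact permutation. The tests were tested on simulated data. The 10 genes and all lists were chosen with earlier results of these data known. Named besides were the 10 genes of 3 splicing lists with the smallest p with both sexes, and for each member the 2 genes with the highest r. Alternatives were pseudocounts of 0.1 and 1, other filters, quantile and median-of-ratios scaling, no trend, the run of library numbers as a covariate, 1 fit of all libraries, a log2 ratio of inclusion to skipping, and each library left out. Leaving out saline male 3 and AVP female 3 together was chosen after seeing the data. Figures were drawn with matplotlib 3.10.9.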

Additional observations from a re-analysis of the deposited data

Results flagged for a closer look

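In groups of 4 libraries, a value was marked where 1 library lay far from the other 3 by Dixon's test, which marks about 1 group in 20 by chance. Of 84 groups examined, 6 were marked, where 4.2 would be by chance. Among saline males, saline male 3 stood apart with 266 TPM of Xist and a summed 0.489 TPM of 4 Y-linked genes, and it was also the highest for Elavl4, at 65.3 TPM. Saline male 2 was the lowest saline male for Srrm4, at 28.5 TPM. Among saline females, saline female 3 was the highest for Rbfox2, at 219.7 TPM, and for Elavl4, at 70.4 TPM.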

How the results depend on the processing

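No paired analysis was possible because the labels carry no replicate numbers, and those used here only name the libraries. In none of the alternatives run did the difference of a member gene, transcript or exon named above pass an adjusted p of 0.05, and of 837 such values for 52 differences, 807 kept their direction. The number of genes called in males, 1 in the values reported, was 0 with a pseudocount of 1, with a filter of 5 TPM in every library, with the run of library numbers as a covariate and in 1 fit of all 15 libraries, and 2 without the trend. Of transcripts, 3 were called in males and 1 with both sexes, and these were 0 and 0 with the filter of 5 TPM and 5 and 0 with median-of-ratios scaling. Without saline male 3 and AVP female 3, 7 genes were called between females and males. Leaving out each library in turn gave 0 to 6 genes in males and in females, 0 to 1 for the difference between the sexes and with both sexes, and 0 to 7 between females and males. For transcripts it gave 0 to 11 in males, 0 to 1 in females and 0 to 3 with both sexes, and for exons 0 to 4 in males and 0 to 3 in females. These counts are of all features, and the cause of their changes was not tested.

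Differences near 0 changed sign. In males, median-of-ratios scaling gave 0.011 for Elavl3, 0.017 for Nova2 and 0.011 for Rbfox2, and quantile normalization 0.035 for Nova2. In females, the run of library numbers as a covariate gave -0.023 for Elavl4 and -0.035 for Srrm4. Leaving out each library in females gave -0.28 to 0.094 for Elavl3, -0.023 to 0.27 for Nova1, -0.035 to 0.090 for Ptbp2, -0.20 to 0.16 for Elavl4, -0.21 to 0.022 for Nova2, -0.19 to 0.24 for Rbfox2 and -0.17 to 0.11 for Srrm4. In males it gave -0.14 to -0.062 for Elavl3, -0.26 to -0.057 for Rbfox1 and -0.13 to -0.066 for Rbfox2. It gave -0.19 to -0.024 for Rbfox3 and -0.16 to -0.040 for Nova2, so these male differences kept their sign there. For exons in males it gave -0.46 to 2.80 percentage points for the Ptbp2 exon of 34 nt and -1.22 to 0.89 for the Srrm4 microexon. For that microexon the log2 ratio of inclusion to skipping was 0.10. With 3 or 4 libraries per group, single libraries decide such values. TPM carry no read counts and the depth of each library is not given in the sources used here, so no limit of detection is given.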
